A study of Mus musculus with 9 samples.

Results

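The genes of the Wnt pathway were followed by RNA-seq, in 9 libraries, in primary tubular epithelial cells (TECs) of mouse kidney, the cells that line the tubule. The members were chosen by name among the protein-coding genes: every Wnt ligand, Frizzled (Fzd) receptor, Dickkopf (Dkk) and secreted Frizzled-related protein (Sfrp), together with Lrp5, Lrp6, Lgr4, Ctnnb1, Axin1, Axin2, Apc, Tcf7, Tcf7l1, Tcf7l2, Lef1, Rnf43, Znrf3, Nkd1, Porcn and Wls. This gave 52 genes of 31167 in the table, of which 19 were ligands, 13 receptors, 2 secretion factors, 10 inhibitors, 3 members of the destruction complex and 5 nuclear factors. The cells came from C57BL/6 kidney and carried no labelled mutation. The study asked how the zinc-finger factor Egr1 acts in injured tubular cells. Sham cells were the untreated controls. H/R cells spent 6 h at 1.0% oxygen in glucose-free medium and 18 h in reoxygenation, a culture model of ischemia and reperfusion. EGR1OV cells were transfected with an Egr1 overexpression plasmid driven, per the methods, by the CMV promoter, with EndoFectin Max as the transfection reagent. The labels list no hypoxia for EGR1OV, and the study names H/R and the plasmid as separate treatments. Its methods, however, describe transfection ahead of H/R, and they give no time from transfection to harvest for this group. Each group had 3 libraries. No group with an empty plasmid was among those compared, so Egr1 and the transfection cannot be told apart. The labels do not say whether the libraries of a group came from separate mice or cultures, so the p-values measure the spread between these libraries, which may be technical.

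Wnt proteins are lipid-modified by Porcn, carried to the cell surface by Wls and bound there by a Frizzled together with Lrp5 or Lrp6. Without a ligand, a complex built on Axin and Apc marks β-catenin (Ctnnb1) for destruction, and with a ligand β-catenin persists and acts with the TCF/LEF factors on target genes such as Axin2, Nkd1, Rnf43, Znrf3 and Lef1, most of which feed back on the pathway. Other ligands, among them Wnt5a and Wnt11, are better known for signals that do not pass through β-catenin. In the kidney the pathway shapes the nephron in development and is drawn on again after tubular injury.

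The starts of 4 members are shown because they carry, in the letters of their promoter, a sequence bound by one of the factors at issue. RefSeq promoter windows (GRCm38.p6, 250 bases before to 50 bases after the transcription start) matched 35 of the 52 members by symbol. The EGR1 sequences searched were GCGTGGGCG and GCGGGGGCG, and the TCF/LEF sequence was CTTTGAT, each on both strands. Capitals mark the match, each stretch is read 5′ to 3′ on the strand of the gene, and each ends 21 bases before the start.
Wnt11 (chr7:98834972-98835091, + strand): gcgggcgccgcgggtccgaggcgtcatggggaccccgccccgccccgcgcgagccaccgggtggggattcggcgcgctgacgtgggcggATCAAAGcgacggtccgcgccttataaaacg
Wnt5b, alternative start (chr6:119449407-119449526, - strand): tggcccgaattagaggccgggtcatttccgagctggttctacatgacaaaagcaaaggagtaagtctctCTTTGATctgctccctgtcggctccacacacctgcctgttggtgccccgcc
Fzd4 (chr7:89404226-89404345, + strand): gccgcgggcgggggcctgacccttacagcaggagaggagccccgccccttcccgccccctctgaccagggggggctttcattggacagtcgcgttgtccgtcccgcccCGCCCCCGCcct
Wnt7a (chr6:91411374-91411553, - strand): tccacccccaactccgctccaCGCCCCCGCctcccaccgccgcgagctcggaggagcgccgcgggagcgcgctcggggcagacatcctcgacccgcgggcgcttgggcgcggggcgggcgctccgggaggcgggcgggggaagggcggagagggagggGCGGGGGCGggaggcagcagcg

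Wnt11 and Wnt5b held the TCF/LEF letters, at 51 and 71 bases before the start. Fzd4 held the second EGR1 sequence once, 32 bases before the start, and Wnt7a held it at 179 and at 42 bases. Of the 45 member windows, 6 held GCGGGGGCG (13.3%), those of Fzd4, Tcf7, Tcf7l2, Wnt2, Wnt3a and Wnt7a, against 2.91% of all 32851 windows. The median GC content was 66.7% in the member windows and 52.7% in all windows, and the part of base composition in this difference was not tested. GCGTGGGCG was held by 1 member window, that of Wnt6 (2.22%), against 0.612% of all. CTTTGAT was held by 2 member windows (4.44%) against 3.73% of all. Among the 9 members that passed the test below in some comparison, 8 had a window, and only Fzd4 held an EGR1 sequence. A match is a string of letters, not a binding site.

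A few abundant genes made up most of the Wnt pathway transcripts. Levels are given as deposited in FPKM, fragments counted relative to the exon length of the gene and to the size of the library, so that different genes are compared per length. In Sham cells the leading ligand was Wnt7a with 69.5 ± 2.84 FPKM (mean ± SD, n = 3), followed by Wnt7b with 37.9 ± 0.608, Wnt9a with 28.8 ± 1.63 and Wnt5a with 10.8 ± 0.254. The ranges of the libraries did not overlap between these neighbours in the order. Below them stood Wnt16 with 3.56 ± 0.127 and Wnt5b with 2.06 ± 0.202. The next ligands, Wnt4, Wnt10b, Wnt10a and Wnt11, lay between 1.66 and 1.31 FPKM, and each overlapped its neighbour. Wnt2b came last of the tested ligands with 0.519 ± 0.0741.

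**Figure D1:**
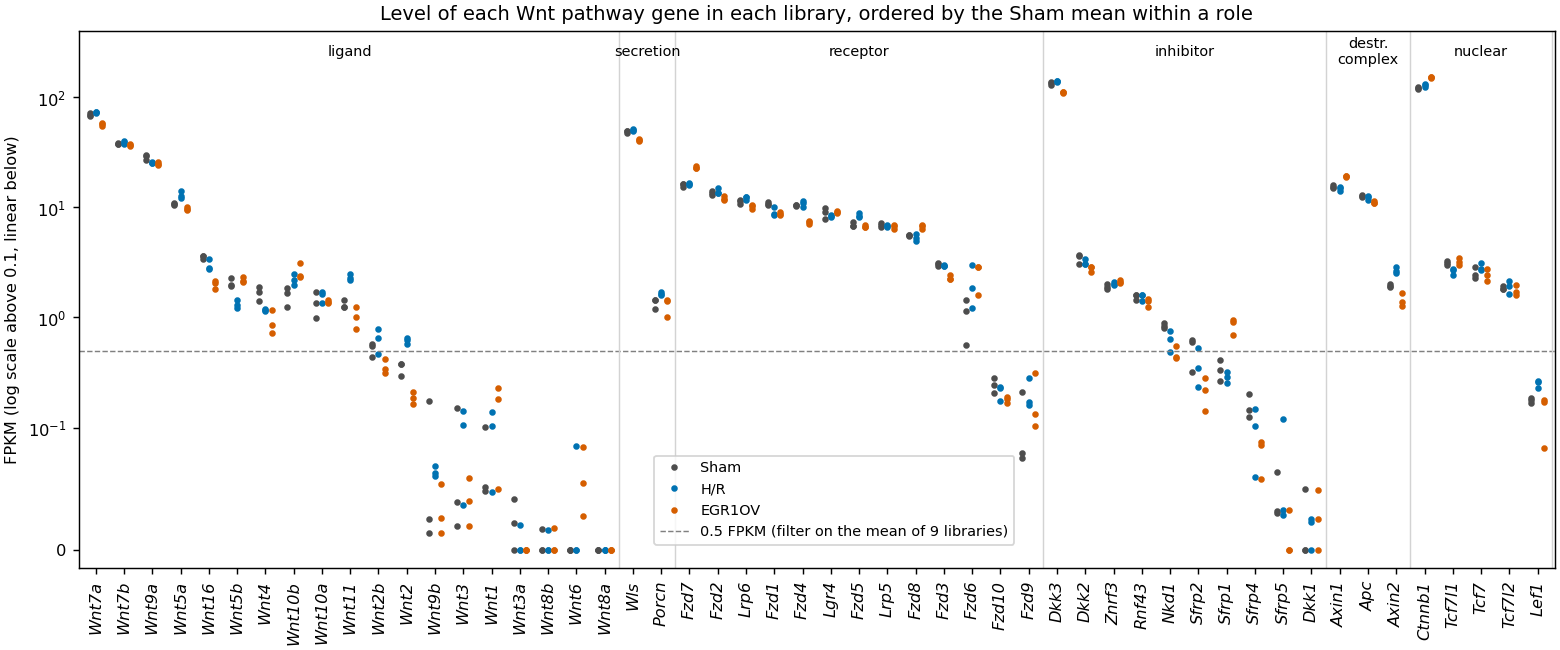
FPKM of the 52 Wnt pathway genes in each of the 9 libraries, ordered by the Sham mean within a role, on an axis that is logarithmic above 0.1 and linear below. A dot is a library, coloured by group, and the dashed line marks the filter at 0.5 FPKM. Wnt7a, Dkk3 and Ctnnb1 lead their roles in each group, and 16 genes, 8 of them ligands, have a mean under the line.

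The first 4 ligands kept their order in each group, and those below them did not. In H/R Wnt11 and Wnt10b stood above Wnt5b, and in EGR1OV Wnt10b stood above Wnt5b and Wnt16. Wnt7a, Wnt7b, Wnt9a and Wnt5a gave nearly all of the summed ligand FPKM, with 91.3 to 92.6% for Sham, 91.7 to 92.2% for H/R, and 91.6 to 92.5% for EGR1OV. The sum itself lay between 138 and 141 FPKM in the EGR1OV libraries, below all Sham libraries (154 to 163) and all H/R libraries (163 to 165). Wnt7a alone gave 43.5 ± 0.975% of it in Sham and 40.9 ± 0.682% in EGR1OV.

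Among the receptors, Fzd7 (16.0 ± 0.675 FPKM in Sham), Fzd2 (13.5 ± 0.648), the co-receptor Lrp6 (11.3 ± 0.409), Fzd1 (10.8 ± 0.291) and Fzd4 (10.4 ± 0.128) led in Sham cells. Lrp6 and Fzd1 overlapped, as did Fzd5 and Lrp5 near 7 FPKM. Fzd6 was the lowest tested receptor, with 1.05 ± 0.438. The inhibitor Dkk3, a divergent Dickkopf, was far above the others with 134 ± 4.19 FPKM, and the next, Dkk2, reached 3.45 ± 0.357. Ctnnb1 stood at 122 ± 2.57 and the Wnt carrier Wls at 49.3 ± 1.13.

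The 16 genes below a mean of 0.5 FPKM over the 9 libraries were not tested at first. They were Wnt1, Wnt2, Wnt3, Wnt3a, Wnt6, Wnt8a, Wnt8b, Wnt9b, Fzd9, Fzd10, Dkk1, Sfrp1, Sfrp2, Sfrp4, Sfrp5 and Lef1. Wnt8a was at 0 in all 9 libraries, which allows up to 3 reads in a library. The other 36 members passed the filter, as did 13985 of all genes.

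The groups were checked by Egr1 itself, which stood at 6.20, 6.91 and 6.09 FPKM in Sham, 8.57, 7.59 and 7.48 after H/R and 45.7, 42.2 and 40.1 with EGR1OV. Sox9, the tubular repair factor the study followed, stood at 13.1 ± 0.916, 16.6 ± 1.57 and 17.9 ± 0.715 FPKM in the 3 groups. All 10 markers of tubular epithelium passed the filter. Their summed FPKM ran from 2048 to 2085 for Sham, 1906 to 1992 for H/R, and 1368 to 1473 for EGR1OV. In EGR1OV against Sham the keratins Krt8, Krt18 and Krt19 fell, while Epcam and Cldn7 rose, and Epcam rose in H/R. Of 8 proximal tubule markers only Lrp2 and Aqp1 passed the filter, with Slc22a6 at 0 in each library. Both fell in EGR1OV, Lrp2 from 3.60 ± 0.0824 FPKM in Sham to 1.22 ± 0.0476 and Aqp1 to 0.368 ± 0.110, a log2 change of -0.75. Aqp1 reached the filter only through its Sham and H/R libraries. Of 8 markers of the loop, distal tubule and collecting duct none passed the filter. Library depth, recovered from the steps of the FPKM values, was 16183617 to 18384022 reads. The very short miRNA gene Gm23935 ranged from 1494 to 21700 FPKM over the libraries and varied within each group.

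Markers of other cell types moved with the plasmid too, and these values and those of the tubule stand beside every EGR1OV result. The summed FPKM of 10 leukocyte markers lay between 140 and 144 for Sham, 116 and 123 for H/R, and 22.1 and 26.7 for EGR1OV, and 7 of 7 tested were past the thresholds downward in EGR1OV against Sham. The sum of 8 smooth muscle markers ran from 3188 to 3306 for Sham, 2920 to 3134 for H/R, and 1235 to 1317 for EGR1OV, with 6 of 7 tested past the thresholds downward in EGR1OV. In H/R against Sham 2 leukocyte markers and 1 smooth muscle marker were past the thresholds downward. Of all tested genes 9.87% were past them upward and 6.51% downward in EGR1OV against Sham. In H/R against Sham these shares were 1.60% and 2.65%. For 10 endothelial markers the sums were 20.2 to 20.9, 21.04 to 21.8 and 15.3 to 16.1, with 2 of 7 past the thresholds downward in EGR1OV. For 11 fibroblast markers they were 37.9 to 39.4, 45.8 to 46.1 and 41.9 to 46.5, with 1 gene up and 1 down of 6 tested in EGR1OV and 3 up in H/R. For 6 podocyte markers the sums overlapped between Sham and H/R and reached 22.5 to 23.6 in EGR1OV, with none of 3 tested past the thresholds there and 1 up and 1 down in H/R. In cultures measured in bulk, fewer cells of a type and less RNA per cell cannot be told apart, and the part of these marker shifts in the Wnt results was not tested.

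The first comparison asked which Wnt pathway genes differed after H/R. Wnt11 and Axin2 rose and Wnt5b fell, and no receptor, inhibitor or nuclear factor passed the thresholds. A gene was counted as changed at a limma adjusted p under 0.05 and at least a 1.2-fold difference on the scale of log2(FPKM + 1), which understates the change of low genes. These were 3 of 36 tested members, or 8.33%, where 4.25% of all tested genes were called, 1.60% higher and 2.65% lower.

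**Figure D2:**
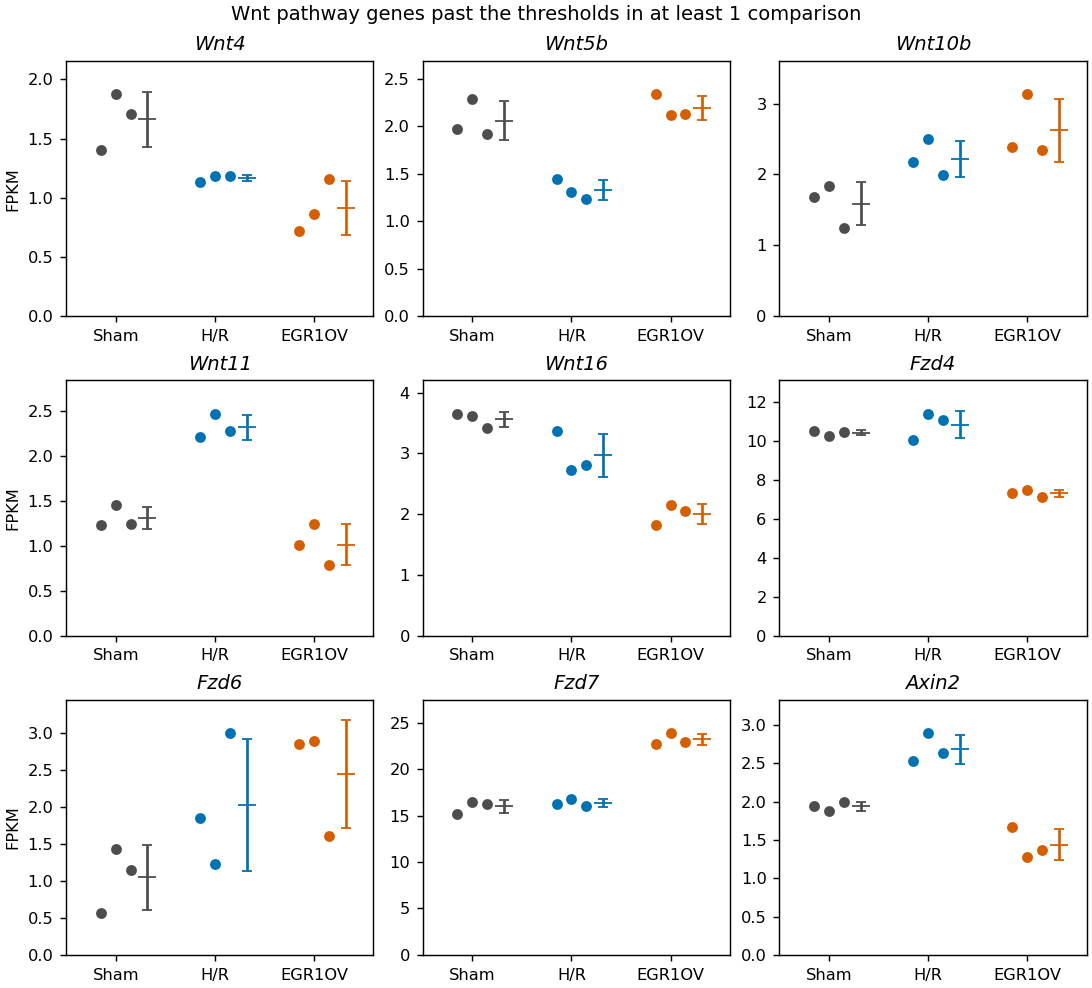
FPKM of the 9 Wnt pathway genes past the thresholds in at least 1 comparison, with a dot per library and, beside the dots, the mean with its SD (n = 3). Wnt11 and Axin2 are highest in the 3 H/R libraries, Wnt5b is lowest there, and Fzd7 stands above 22 FPKM in EGR1OV alone.

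Wnt11, a ligand of polarity and migration that in the embryonic kidney marks the tips of the ureteric bud, stood at 1.24, 1.46 and 1.25 FPKM in Sham, 2.21, 2.47 and 2.28 after H/R and 1.00, 1.24 and 0.79 with EGR1OV. All H/R libraries were above all others, while Sham and EGR1OV overlapped. The log2 change after H/R was 0.52 ± 0.0884 (SE; limma adjusted p 0.0076). The gene lies at chr7:98835112-98855195 (GRCm38, + strand), and 364 bases of its exons overlap the processed pseudogene Gm8398 on the other strand. The sources do not give whether reads were counted by strand, so reads from the shared bases cannot be told apart.

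Axin2, a scaffold of the destruction complex and the most widely used readout of β-catenin activity, stood at 1.944, 1.885 and 2.002 FPKM in Sham, 2.525, 2.895 and 2.632 after H/R and 1.67, 1.28 and 1.37 with EGR1OV. No library of a group overlapped another group. The log2 change after H/R was 0.32 ± 0.0719 (limma adjusted p 0.0229). This call was lost, with adjusted p of 0.0571 to 0.0739, when H/R 2, H/R 3, Sham 1, Sham 2 or Sham 3 was left out. The gene lies at chr11:108920349-108950783 (+ strand) and shares 209 exon bases with the antisense gene Gm11670, which reached 0.225 FPKM at most.

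Wnt5b, a ligand close to Wnt5a in sequence, stood at 1.97, 2.29 and 1.92 FPKM in Sham, 1.44, 1.31 and 1.23 after H/R and 2.34, 2.12 and 2.13 with EGR1OV. The H/R libraries were below all others and the other groups overlapped. The log2 change was -0.39 ± 0.0678 (limma adjusted p 0.00831), at chr6:119432531-119544347 (- strand). Wnt11 and Wnt5b, which moved in opposite directions, were the members whose promoters held the TCF/LEF letters shown above.

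Wnt5a differed the other way from Wnt5b, with 11.1, 10.9 and 10.6 FPKM in Sham and 12.1, 12.6 and 14.0 in H/R. Its log2 change of 0.23 had a limma adjusted p of 0.0234 but was under the fold threshold. The same held for the receptor Fzd5 (0.26, 0.0101), for Fzd1 (-0.22, 0.0405) and for the ligand Wnt9a (-0.16, 0.0324). Fzd5 lay just under that threshold and was called with another pseudocount, median-ratio scaling, quantile normalization and voom. With voom on the recovered reads of the filtered genes 4 more members were called. These were the receptor Fzd6 (0.94, limma voom adjusted p 0.0344) and the ligands Wnt10b (0.49, 0.031), Wnt4 (-0.50, 0.0237) and Wnt16 (-0.275, 0.0422). On p alone 7 members passed (19.4%), 4 higher and 3 lower, where 11.7% of all genes did, 4.15% higher and 7.54% lower. The antisense gene Gm2670 shares 4.58% of the exon bases of Wnt5a, and Gm38058 shares 17.8% of those of Fzd5 on the other strand, and neither exceeded 0.303 FPKM.

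The feedback targets of β-catenin did not move as one after H/R. Beside Axin2, the Wnt antagonist Nkd1 had 0.844 ± 0.0468 FPKM in Sham and 0.628 ± 0.133 in H/R, with no overlap between the libraries (limma adjusted p 0.191). The E3 ligases Rnf43 and Znrf3, which clear Frizzled from the membrane, had 1.55 ± 0.0892 and 1.90 ± 0.0979 FPKM in Sham and 1.55 ± 0.108 and 2.03 ± 0.0684 in H/R (limma adjusted p 0.975 and 0.486). Ctnnb1 itself had 122 ± 2.57 and 128 ± 4.53 FPKM (0.163). The libraries of Sham and H/R did not overlap in 14 of 36 members (38.9%), where this held for 33.6% of all genes. The median log2 change of the tested members was 0.05, and that of all tested genes was -0.03.

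**Figure D3:**
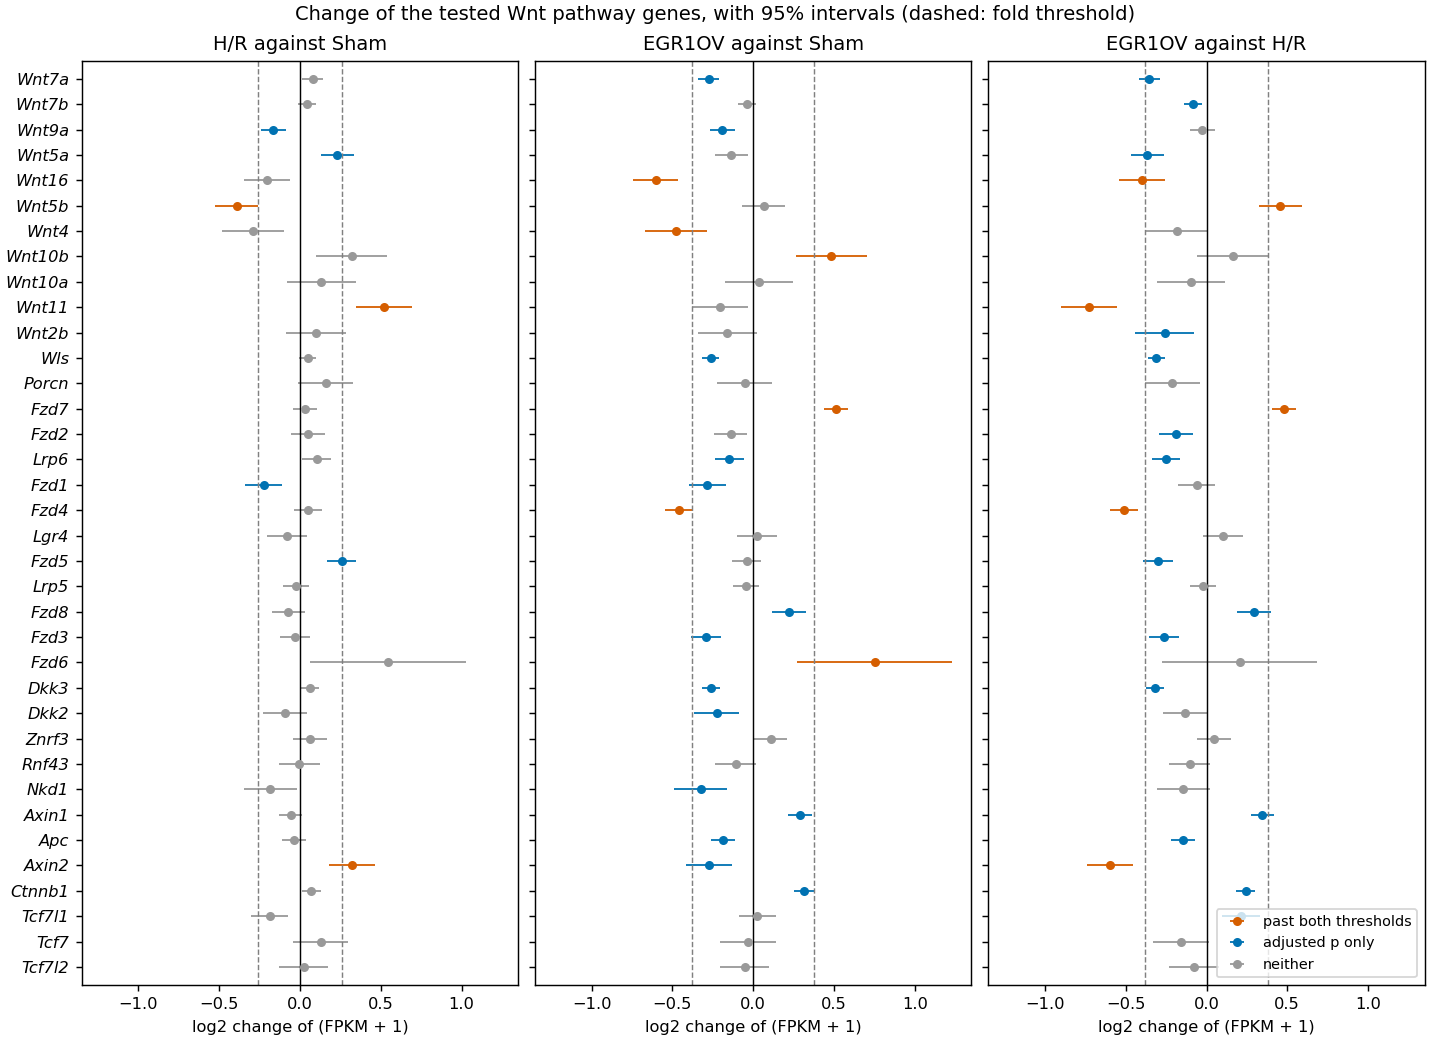
Log2 change of FPKM + 1 for the 36 tested members in each comparison, with approximate 95% intervals from the limma SE. Orange marks genes past the p and fold thresholds, blue those past the p threshold alone, and dashed lines the fold threshold of 1.2 (H/R against Sham) or 1.3. The interval of Fzd6 is the widest, from 0.27 to 1.23 in EGR1OV against Sham.

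The second comparison asked which members differed in cells that had received the Egr1 plasmid. The receptors Fzd7 and Fzd6 and the ligand Wnt10b rose, and the receptor Fzd4 and the ligands Wnt16 and Wnt4 fell. With a fold threshold of 1.3 these were 6 of 36 members, or 16.7%, where 16.4% of all tested genes were called, so the members were called about as often as any gene. The 3 higher and 3 lower members stand beside 9.87% and 6.51% of all genes. The comparison shares its Sham libraries with the first.

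Fzd7, the leading Frizzled of these cultures, stood at 15.2, 16.5 and 16.2 FPKM in Sham, 16.3, 16.8 and 16.0 after H/R and 22.8, 23.9 and 23.0 with EGR1OV. Every EGR1OV library was above every other, and Sham and H/R overlapped. The log2 change against Sham was 0.51 ± 0.0374 (limma adjusted p 4.19e-06), at chr1:59482424-59486955 (+ strand).

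Fzd4, the receptor for norrin as well as for Wnt ligands, stood at 10.5, 10.3 and 10.5 FPKM in Sham, 10.1, 11.4 and 11.1 after H/R and 7.35, 7.48 and 7.12 with EGR1OV. Here the EGR1OV libraries were below all others. The log2 change was -0.46 ± 0.0450 (limma adjusted p 3.29e-05), at chr7:89404355-89413134 (+ strand), and this is the called member whose promoter held the EGR1 letters.

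The balance of Frizzled receptors differed while their sum did not separate the groups. The summed FPKM of the Fzd genes lay between 66.4 and 69.3 in Sham, and overlapping ranges were found after H/R (66.7 to 71.8) and with EGR1OV (68.2 to 72.2). Fzd7 made up 23.6 ± 0.578% of it in Sham, 23.5 ± 0.871% after H/R and 33.2 ± 0.482% with EGR1OV. Fzd4 made up 15.4 ± 0.525%, 15.6 ± 0.408% and 10.5 ± 0.106%.

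Fzd6, a receptor best known for planar cell polarity, stood at 0.568, 1.43 and 1.14 FPKM in Sham, 1.85, 1.23 and 3.00 after H/R and 2.85, 2.88 and 1.60 with EGR1OV. Libraries of the same group differed widely, on 45 to 256 reads each, but EGR1OV and Sham did not overlap. Its exons share 152 bases with Gm26704 on the other strand. The log2 change against Sham was 0.75 ± 0.245 (limma adjusted p 0.0319), and the call was lost, with adjusted p of 0.0571 to 0.108, when EGR1OV 1, EGR1OV 2, Sham 1 or Sham 3 was left out.

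Wnt10b, a ligand of the β-catenin branch, stood at 1.68, 1.84 and 1.25 FPKM in Sham, 2.18, 2.50 and 1.99 after H/R and 2.39, 3.13 and 2.34 with EGR1OV. Both other groups lay above Sham and overlapped each other. The log2 change was 0.48 ± 0.113 in EGR1OV (limma adjusted p 0.0066), and in H/R it was 0.32 (limma adjusted p 0.103). With voom on recovered reads the change in H/R was past the thresholds, at 0.49 (limma voom adjusted p 0.031). Wnt1, its neighbour 11.7 kb away on chromosome 15, had 2 to 9 reads per library.

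Wnt16, a ligand first tied to stem cells and stroma, stood at 3.65, 3.62 and 3.42 FPKM in Sham, 3.37, 2.73 and 2.81 after H/R and 1.82, 2.15 and 2.04 with EGR1OV. The 3 groups did not overlap, with Sham highest. The log2 change in EGR1OV was -0.60 ± 0.0717 (limma adjusted p 0.000115), at chr6:22288227-22298522 (+ strand).

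Wnt4, which drives the mesenchyme of the embryonic kidney to form tubules, stood at 1.41, 1.87 and 1.70 FPKM in Sham, 1.13, 1.18 and 1.18 after H/R and 0.718, 0.861 and 1.16 with EGR1OV. Sham was above the others, which overlapped. The log2 change in EGR1OV was -0.48 ± 0.098 (limma adjusted p 0.00324), at chr4:137277489-137299726 (+ strand). In H/R it was -0.29 (limma adjusted p 0.0872), and with voom on recovered reads it was past the thresholds, at -0.50 (limma voom adjusted p 0.0237).

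Several abundant members differed by less than the fold threshold with small errors. Wnt7a, a ligand of epithelia whose promoter held the EGR1 letters at 2 places, stood at 72.7, 68.6 and 67.2 FPKM in Sham, 73.6, 74.6 and 72.1 after H/R and 58.4, 57.5 and 55.6 with EGR1OV, a log2 change against Sham of -0.28 ± 0.0335 (limma adjusted p 0.000131). Wls stood at 49.8, 50.0 and 48.0 in Sham, 52.1, 50.1 and 50.8 after H/R and 40.6, 40.4 and 41.6 with EGR1OV, a log2 change of -0.26 ± 0.0272 (4.78e-05). Dkk3 stood at 135, 138 and 129 in Sham, 140, 142 and 138 after H/R and 112, 113 and 110 with EGR1OV, a log2 change of -0.26 ± 0.0285 (6.94e-05). In each of these the EGR1OV libraries were the lowest 3 of 9.

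The core of the canonical branch differed in the other direction in part. Ctnnb1 stood at 119, 124 and 123 FPKM in Sham, 132, 129 and 123 after H/R and 149, 153 and 153 with EGR1OV, a log2 change against Sham of 0.31 ± 0.0303 (limma adjusted p 2.9e-05). Axin1, which holds the destruction complex together, stood at 15.1, 16.0 and 15.5 in Sham, 14.2, 15.0 and 15.4 after H/R and 19.5, 18.8 and 19.3 with EGR1OV, a log2 change of 0.29 ± 0.0372 (0.000196). The EGR1OV libraries were the highest 3 of 9 for both. Among the feedback targets Axin2 was at -0.27 (limma adjusted p 0.0119) and Nkd1 at -0.33 (0.0107), both lower but under the fold threshold. With voom on recovered reads both were past the thresholds, at -0.44 (limma voom adjusted p 0.00262) and -0.84 (0.00126). Nkd1, at 0.472 FPKM in EGR1OV, reached the filter of 0.5 FPKM only through the other groups, so its p-values here are no independent support. Rnf43 at -0.11 (limma adjusted p 0.206) and Znrf3 at 0.11 (0.122) did not pass the p threshold. Nor did the low gene Lef1 at -0.36 (limma voom adjusted p 0.49). The other-strand gene Ulk4, at 0.520 FPKM at most, shares 15.1% of the exon bases of Ctnnb1. Transcripts of Ctnnb1 do not show the amount of β-catenin protein, which is set by its degradation.

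On p alone 20 members passed in EGR1OV against Sham, 6 higher and 14 lower, or 55.6% where 45.9% of all genes did, 26.1% higher and 19.8% lower. By role these were 5 of 11 ligands, 7 of 11 receptors, 3 of 5 inhibitors, 1 of 2 secretion factors, 3 of 3 members of the destruction complex and 1 of 4 nuclear factors. The ligand Wnt9a (-0.19, limma adjusted p 0.00391) and the receptors Fzd1 (-0.28, 0.0034), Fzd3 (-0.29, 0.000772), Lrp6 (-0.15, 0.0244) and Fzd8 (0.22, 0.00731) were among them, as were Dkk2 (-0.23, 0.025) and Apc (-0.19, 0.00318). With voom on recovered reads Fzd3 was past the fold threshold too, at -0.40 (limma voom adjusted p 2.63e-06). The libraries did not overlap in 24 of 36 members (66.7%, against 55.7% of all genes). The median log2 change was -0.12 over the members and 0.02 over all tested genes.

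Some members stayed within their errors in EGR1OV against Sham. The 95% interval of the log2 change was -0.09 to 0.02 for Wnt7b, -0.13 to 0.03 for Lrp5, -0.10 to 0.15 for Lgr4, -0.13 to 0.05 for Fzd5 and -0.18 to 0.25 for Wnt10a. For the TCF factors it was -0.20 to 0.14 for Tcf7, -0.09 to 0.14 for Tcf7l1 and -0.21 to 0.10 for Tcf7l2. On the scale of log2(FPKM + 1), changes as large as the fold threshold lie outside these intervals. That scale understates the change of low genes. By voom on recovered reads Wnt10a was at 0.07 ± 0.196 (SE), which leaves room for such a change.

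The third comparison set the plasmid against the injury model directly. Fzd7 and Wnt5b were higher and Wnt11, Axin2, Fzd4 and Wnt16 lower in EGR1OV than in H/R. These were again 6 of 36 members (16.7%), where 18.9% of all genes were called, 11.9% higher and 6.94% lower. With quantile normalization Fzd7 and Wnt5b fell under the fold threshold, and the calls became 0 higher and 10 lower. The comparison shares its libraries with both others and adds the test of the difference between them.

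The largest difference was that of Wnt11, with a log2 change of -0.73 ± 0.0884 (limma adjusted p 0.000118), followed by Axin2 with -0.60 ± 0.0719 (0.000111). The levels given above put both genes highest in H/R. Fzd4 differed by -0.51 ± 0.045 (limma adjusted p 1.43e-05) and Fzd7 by 0.48 ± 0.0374 (6.21e-06), with H/R close to Sham for both. Wnt5b differed by 0.46 ± 0.0678 (limma adjusted p 0.000419), with EGR1OV close to Sham. Wnt16 differed by -0.40 ± 0.0717 (limma adjusted p 0.00132), but fell under the fold threshold at -0.36 without EGR1OV 1 and at -0.33 without H/R 1.

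On p alone 21 members passed (58.3%, against 51.0% of all genes), 6 higher and 15 lower, beside 32.0% and 19.0% of all genes. They included Wnt5a (-0.37, limma adjusted p 0.000301) and Wnt7a (-0.36, 2.2e-05), just under the fold threshold, and Wnt2b (-0.26, 0.0431), whose mean of 0.503 FPKM was just past the filter. Wnt2b, at 0.359 FPKM in EGR1OV, passed it only through the other groups, so its p-value is no independent support. Libraries did not overlap in 24 of 36 members (66.7%, against 58.6% of all genes). The median was -0.14 over the members and 0.05 over all tested genes. Over all genes the direction of the calls depended on the scaling: higher calls were 60.3%, 37.7% and 63.2% in EGR1OV against Sham, H/R against Sham and EGR1OV against H/R as deposited, 55.8%, 57.9% and 52.1% with median-ratio scaling and 45.9%, 56.5% and 42.5% with quantile normalization.

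With voom on the recovered reads of the filtered genes, 10, 8 and 8 members were called in EGR1OV against Sham, H/R against Sham and EGR1OV against H/R, where 21.6%, 7.17% and 25.3% of 13967 genes were.

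Low members were read from the reads recovered per library, by limma voom with no filter on low values, a setting added after the data were seen. Under it 13.0%, 2.72% and 15.3% of 29334 genes were called in EGR1OV against Sham, H/R against Sham and EGR1OV against H/R. Sfrp1, a secreted protein that binds Wnt ligands, had 19, 31 and 24 reads in Sham, 18, 23 and 25 after H/R and 50, 65 and 70 with EGR1OV. The EGR1OV libraries stood above all others, with a log2 change of 1.33 ± 0.237 against Sham (limma voom adjusted p 0.000237) and 1.53 ± 0.245 against H/R (6.22e-05).

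**Figure D4:**
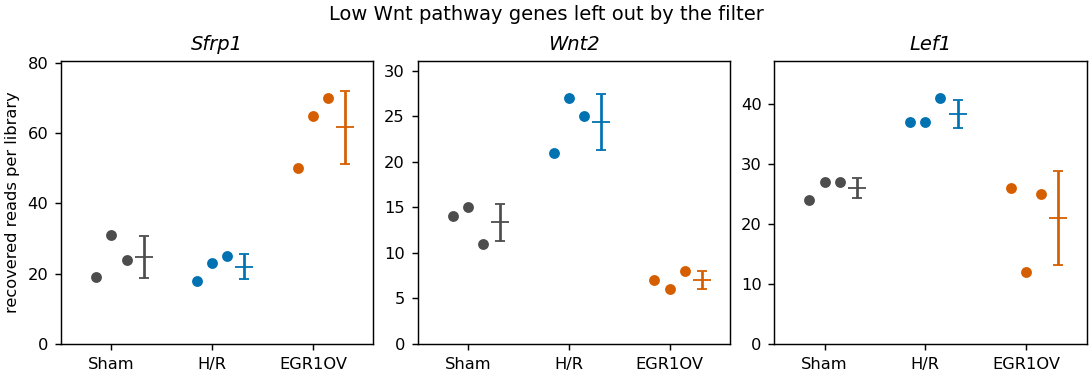
Reads per library recovered from the FPKM steps for 3 low members, with a dot per library and the mean with its SD (n = 3) beside the dots. Sfrp1 has 50 to 70 reads in EGR1OV and at most 31 elsewhere, and Wnt2 has 21 to 27 reads in H/R and at most 15 elsewhere.

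Wnt2, a ligand of the β-catenin branch, had 14, 15 and 11 reads in Sham, 21, 27 and 25 after H/R and 7, 6 and 8 with EGR1OV, so that the 3 groups did not overlap. The log2 change was -1.66 ± 0.341 in EGR1OV against H/R (limma voom adjusted p 0.000842). Against Sham it was 0.80 in H/R (0.132) and -0.86 in EGR1OV (0.11), neither past the threshold. Lef1, a TCF/LEF factor and itself a target, had 24, 27 and 27 reads in Sham, 37, 37 and 41 after H/R and 26, 12 and 25 with EGR1OV, with a log2 change of -0.85 ± 0.276 in EGR1OV against H/R (limma voom adjusted p 0.0267). In H/R against Sham the log2 change of Lef1 was 0.50 (limma voom adjusted p 0.35), not past the threshold.

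The remaining low members gave no call that rests on more than a few reads. Fzd9 had 3 to 12 reads per library, Fzd10 9 to 16, Sfrp2 5 to 22, Sfrp4 4 to 14 and Wnt9b 1 to 13. Dkk1, Wnt3a and Wnt6 had 3 reads at most in a library, Sfrp5 at most 4 and Wnt3 at most 8, and Wnt8b was at most 0.0178 FPKM. Wnt6 had 6 reads in all in EGR1OV, 3 in H/R and 0 in Sham, a difference near the floor of 3 reads (limma voom adjusted p 0.0295 in EGR1OV against Sham).

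In 3 of 4 pairs of neighbouring ligand genes, 1 gene passed the filter and the other did not. Wnt9a had 25.1 to 28.8 FPKM by group, and Wnt3a, 16.2 kb away, had at most 2 reads. Wnt10a lay 6.19 kb from Wnt6, and Wnt10b 11.7 kb from Wnt1, with the lower gene of each pair at under 0.5 FPKM. Wnt9b and Wnt3, 24.3 kb apart, were both low.

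The rest of the pathway was taken from 4 further lists of 104 genes: secreted modulators and feedback inhibitors, co-receptors and polarity genes, transducers, and targets. Of 78 tested, 8 rose and 9 fell in EGR1OV against Sham (21.8% called), 4 rose and 2 fell in H/R against Sham (7.69%), and 9 were higher and 9 lower in EGR1OV against H/R (23.1%). The shares of all genes were 16.4%, 4.25% and 18.9%. By direction, higher then lower, they were 9.87% and 6.51%, 1.60% and 2.65%, and 11.9% and 6.94%. These shares stand beside the count of each list below.

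Of 8 tested modulators, 5 fell and none rose in EGR1OV against Sham, with a median log2 change of -0.42. Another 14 of the 22 modulators in the table were under the filter and not tested, and low modulators went both ways. The R-spondin Rspo3 had 0.0258 ± 0.0117 FPKM in Sham, 0.0363 ± 0.0484 after H/R and 0.344 ± 0.107 with EGR1OV. Frzb had 0.387 ± 0.0569, 0.258 ± 0.044 and 0.206 ± 0.0845. For both genes the Sham and EGR1OV libraries did not overlap. Dact3, an antagonist of Dishevelled, had 2.19 ± 0.321 FPKM in Sham, 1.67 ± 0.174 after H/R and 0.989 ± 0.12 with EGR1OV (log2 change -0.68, limma adjusted p 0.00023). Gpc4, a glypican that presents Wnt at the cell surface, had 61.8 ± 0.677, 68.7 ± 3.34 and 39.5 ± 0.476 (-0.63, 5.28e-07). Lgr6, a receptor of the R-spondins that heighten Wnt signals, had 6.31 ± 0.136, 6.88 ± 0.233 and 4.21 ± 0.268 (-0.49, 2.7e-05). The glypican Gpc3 and Dact1 were the other members to fall. None was called after H/R. Against H/R 4 were lower, led by Gpc4 (-0.78), Lgr6 (-0.60) and Gpc3 (-0.45), and Kremen1, a receptor of the Dickkopf proteins, was higher (0.45, limma adjusted p 0.000226).

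Of 33 tested transducers, 2 were past the thresholds in EGR1OV against Sham, both higher, where 9.87% of all tested genes were called higher. The transducers were thus not called more often than other genes. Dvl1, a Dishevelled that relays the signal from Frizzled, had 19.7 ± 0.572 FPKM in Sham, 18.7 ± 0.182 after H/R and 29.8 ± 1.45 with EGR1OV (0.57, limma adjusted p 2.28e-06). Bcl9, a co-activator of β-catenin, had 5.02 ± 0.0849, 4.83 ± 0.0982 and 6.85 ± 0.359 (0.38, 8.41e-05). Bcl9l joined them against H/R (0.40, 0.00018). Among 13 tested co-receptors and polarity genes, Prickle2 rose in EGR1OV (0.38, 0.00136), also against H/R (0.47), and Celsr2 fell in H/R (-0.28, 0.0112).

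Targets of β-catenin from other tissues went both ways. In EGR1OV against Sham 5 rose and 4 fell of 24 tested, led by Wisp2 with 0.125 ± 0.0567 FPKM in Sham and 1.24 ± 0.132 in EGR1OV (0.99, limma adjusted p 1.06e-05), the drug transporter Abcb1a with 0.222 ± 0.038 and 1.13 ± 0.0576 (0.80, 0.000111) and Lbh with 92.0 ± 4.09 and 56.2 ± 1.3 (-0.70, 1.04e-06). The same 3 genes had the largest changes in EGR1OV against H/R, with 0.97, 0.75 and -0.71. Wisp2 (0.125 FPKM in Sham and 0.140 in H/R) and Abcb1a (0.222 and 0.270) reached the filter of 0.5 FPKM only through their EGR1OV libraries, so the filter favoured a higher value there and their p-values are no independent support. After H/R 4 rose and 1 fell. The largest changes were those of the hyaluronan receptor Cd44 (0.42, limma adjusted p 0.000451), the angiogenic factor Vegfa (0.41, 0.00618) and the AP-1 gene Fosl1 (0.38, 0.0032). In EGR1OV against the same Sham libraries they rose too, by 0.53, 0.60 and 0.52. These 3 genes are also known to respond to signals other than Wnt. Wisp1 rose after H/R as well (0.35, limma adjusted p 0.00011), and Birc5 fell (-0.36, 0.0328). In EGR1OV Wisp1 was at -0.15 against Sham, under the fold threshold. Against H/R it was at -0.50 (limma adjusted p 1.61e-07), past both thresholds.

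The cell cycle targets Ccnd1 and Myc, often used to read the pathway, differed from each other. Ccnd1, cyclin D1, had 55.8, 56.3 and 53.3 FPKM in Sham, 62.3, 62.2 and 62.4 after H/R and 44.3, 45.4 and 43.5 with EGR1OV. The 3 groups did not overlap, and EGR1OV was past the thresholds against H/R (-0.48, limma adjusted p 7.65e-07), while the changes against Sham of 0.17 in H/R (0.00595) and -0.30 in EGR1OV (1.93e-05) were under the fold thresholds. Myc had 42.0 ± 1.24, 45.5 ± 1.45 and 49.2 ± 2.65 FPKM, a log2 change against Sham of 0.12 in H/R (limma adjusted p 0.116) and 0.22 in EGR1OV (0.00222), with the highest mean in EGR1OV and overlap between EGR1OV and H/R.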

How the data were processed

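RNA was extracted with TRIzol and sequenced on an Illumina NovaSeq instrument. The authors deposited 1 table of FPKM that holds each library in its own column. The submitters' processing notes name HISAT2 2.1.0, Bowtie2 2.2.3, TopHat2 and the build mm9, with no role or order, and the counter is not given in the sources used here. In the table, however, 94.6% of gene positions equal GENCODE M21, so coordinates are given as GRCm38. FPKM are not counts. With GENCODE exon lengths, 94.0% of 162883 values of 1 to 1000 reads came out whole within 0.02 reads. Members whose values did not were Apc, Fzd8, Tcf7l2, Wnt7b and Wnt8b. The floor of 3 reads covers counting error only. Intervals come from the limma SE and, like the p-values, measure the spread between these libraries, which may be technical.

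Groups and replicate numbers came from the sample titles. The main test was limma 3.58.1 (R 4.3.3; lmFit, eBayes with trend, two-sided) on log2(FPKM + 1) over the 13985 genes whose mean reached 0.5 FPKM, in 1 fit of 9 libraries, with p adjusted by Benjamini-Hochberg over all of them. A gene was called at adjusted p under 0.05 and 1.3-fold (EGR1OV against Sham) or 1.2-fold (H/R against Sham), the fold thresholds of the study. The 1.3-fold was also used for EGR1OV against H/R, for which the study states none. The script was tested on simulated data. Replicates of each group differed by more than sampling noise, and none was merged. Values are given for each member called, for the leading member of each role and for up to 3 called genes of largest change from each further list. Wisp1, Birc5, Ccnd1 and Myc are given besides. The members, lists and motifs were chosen with earlier results of these data known. Alternatives were another pseudocount, filter, scaling or fit, voom on recovered reads, no fold threshold, a replicate block and leaving out each library.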

Additional observations from a re-analysis of the deposited data

Results flagged for a closer look

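In 6 members the effects of the plasmid and of H/R differed when EGR1OV was tested against H/R itself, with the same Sham libraries behind both effects. These 6 of 36 were past both the adjusted p of 0.05 and the 1.3-fold threshold (limma), as were 18.9% of all genes. Log2 changes were -0.73 for Wnt11, -0.60 for Axin2, -0.51 for Fzd4, -0.40 for Wnt16, 0.46 for Wnt5b and 0.48 for Fzd7. For Wnt11 and Axin2 the change against Sham was positive in H/R (0.52 and 0.32) and negative in EGR1OV (-0.20 and -0.27). Wnt11 did not pass in EGR1OV against Sham (limma adjusted p 0.0878), where the libraries overlapped. With voom on the recovered reads of the filtered genes Wnt11 was past the thresholds, at -0.40 (limma voom adjusted p 0.0484). With voom and no filter on low values it was not. The Axin2 call after H/R was lost when some single libraries were left out, as given above. For Wnt5b it was -0.39 in H/R and 0.06 in EGR1OV, and for Fzd4 0.05 and -0.46. For Fzd7 it was 0.03 and 0.51, and for Wnt16 -0.20 and -0.60. Wnt11 and Axin2 share exon bases with a gene on the other strand, and the leukocyte and smooth muscle markers were lowest in EGR1OV, as given above. Their part in these differences was not tested.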

How the results depend on the processing

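No member that was called changed direction under any of the alternatives. In EGR1OV against Sham the 6 called members became 10 with voom on recovered reads, 20 with no fold threshold and 11 with voom and no filter on low values, and were 5 to 6 with a library left out. In H/R against Sham the 3 became 5 with median-ratio scaling, 8 with voom and 7 with no fold threshold, and were 2 to 6 with a library left out, the 6 without H/R 1. In EGR1OV against H/R the 6 became 10 with quantile normalization, where Fzd7 (0.36) and Wnt5b (0.37) fell under the fold threshold and the split was 0 higher and 10 lower, 21 with no fold threshold and 11 with voom and no filter, and were 6 to 7 with a library left out. Of the further pathway genes, the 17 called in EGR1OV against Sham became 49 and the 18 in EGR1OV against H/R became 47 with no fold threshold, and the 6 after H/R became 14, and 10 with voom. With a library left out they were 13 to 17, 15 to 18 and 5 to 7. The median change of the members after H/R was 0.085 with median-ratio scaling and 0.016 to 0.056 with a library left out, 0.016 without H/R 2 and 0.028 without Sham 1. In EGR1OV against H/R it was -0.22 with quantile normalization and -0.161 to -0.092 with a library left out, -0.092 without EGR1OV 3. With no filter on low values, where more genes are tested, Axin2 after H/R (adjusted p 0.0684) and Fzd6 in EGR1OV against Sham (0.0859) were lost. Libraries with the same replicate number did not deviate together over all tested genes (correlations -0.021 to 0.062). Whether they share a source that acts on some genes was not tested. With the replicate number as a block the calls were 5, 3 and 6, with Axin2 at 0.32 (adjusted p 0.0541) and Fzd6 at 0.75 (0.0612) lost and Wnt10b gained after H/R. Depth limits Sfrp1, Lef1 and Wnt2 to between 6 and 70 reads per library. Apart from the losses named, the cause of the moves was not tested.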
